A study of Bos taurus with 8 samples.

Results

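Oocyte and maternal effect transcripts are messages that the growing oocyte makes and stores, and the group described here holds 10 such genes, GDF9, BMP15, NLRP5, TLE6, OOEP, ZAR1, BTG4, WEE2, NOBOX and H1FOO. They were taken as every probe whose gene symbol in the array's annotation is one of these 10, which gave 10 of the 15229 genes named on the array and 15 of its 43794 gene probes. Of the 10 genes, 8 had 1 probe, WEE2 had 3 and H1FOO had 4. H1FOO is named H1-8 in the current RefSeq table. The blastocysts were bovine embryos matured, fertilized and cultured in vitro from slaughterhouse ovaries. In the BSO group, buthionine sulfoximine, which blocks the first enzyme of glutathione synthesis, was present at 0.4 mM from day 3 to day 5 and at 0.01 mM from day 5 to day 7. The control group had the same culture steps without BSO. Collection was at 196 h after fertilization for both groups, each pool held 10 blastocysts, and there were 4 pools per group. Each of 8 dual-colour arrays held BSO material in one dye and control material in the other.

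Maternal transcripts carry the embryo through its first divisions. Most of them are cleared as the embryo activates its own genome, well before the blastocyst stage. The 10 genes cover growth factors secreted by the oocyte, 3 proteins of the subcortical maternal complex (a protein assembly under the egg membrane), factors that store or degrade maternal messages, a kinase that holds the oocyte in meiotic arrest, an oocyte transcription factor and an oocyte linker histone. The comparison asks whether the signal of these genes in blastocysts differed between BSO and control culture. The arrays cannot tell leftover maternal messages from messages made by the embryo.

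In short, TLE6 was well above background, most of the other probes lay close to it, and no probe passed the test of a BSO difference. At the TLE6 probe the mean log2 ratio of BSO over control was -0.42 ± 0.11 (limma SE, n = 4), the lowest of the 15, over 4 replicates that each hold both dye orientations. The TLE6 ratio had opposite signs in these orientations, with means of -1.31 with BSO in Cy5 and 0.48 with BSO in Cy3. NOBOX, 1 of 3 WEE2 probes and 1 of 4 H1FOO probes had means of -0.16 to -0.21 and were lower in all 4 replicates. With TLE6 that makes 4 of 13 tested probes, against 17.0% of all probes. The other WEE2 probes had means above 0, as did the H1FOO probes EMBV3_01755 and EMBV3_21367. BTG4 had no mean difference, with replicates that pointed in opposite directions.

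Brightness was read against the array's own negative-control spots, 153 per array. The limit for each array and dye was the 95th percentile of these spots, and a probe's level is given as a multiple of that limit. Of the 15 probes, 5 (of BMP15, TLE6 and BTG4, and 2 of H1FOO) were above the limit on all 8 arrays in both the BSO and the control channel, which is 33.3% of them, against 53.8% of all gene probes. The GDF9 and ZAR1 probes were above it on 0 arrays in either channel, and the remaining 8 were above it on some arrays only. At 2 times the limit, on at least 4 arrays in either channel, only TLE6 remained, or 6.67% of the 15 probes against 30.8% of all gene probes. A probe's brightness also depends on its own sequence and on its position in the transcript, so a dim probe does not show that a transcript was missing. Near background a log2 ratio can be compressed toward 0, depending on how background was handled, which is not given for the deposited ratios. The multiples are not normalized between channels, so a BSO multiple set against a control one does not measure the BSO effect.

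**Figure D1:**
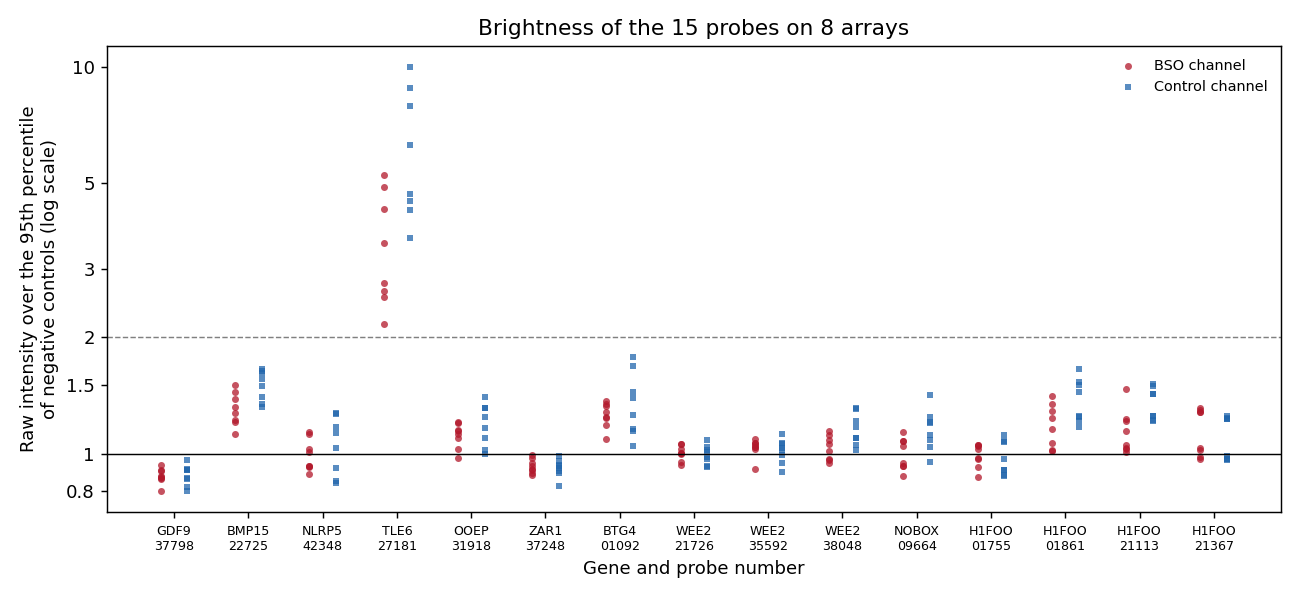
Raw intensity of the 15 probes (gene and probe number on the horizontal axis) as a multiple of the negative-control limit, on a log scale, with 1 point per array (8 each), BSO channel left and control channel right. The solid line marks 1 and the dashed line 2, and only the points of TLE6 lie above the dashed line.

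The labelled stage was checked against markers of the blastocyst lineages. Of 10 trophectoderm markers, 8 passed 2 times the limit at their brightest probe, among them the keratins KRT8, KRT18 and KRT19, as did 2 of 4 inner cell mass markers (POU5F1 and NANOG). Of the named genes on the array, 13689 had a probe above the limit itself on at least 4 arrays in either channel. Among these, 48.0% passed 2 times the limit at their brightest such probe. Of 4 hypoblast markers, 3 had a probe and 2 passed (GATA4 and PDGFRA), and of 4 sperm markers 2 did (PRM1 and TNP1). Of 8 markers of cumulus and granulosa cells, which surround the oocyte, 3 did (CYP19A1, INHBA and STAR). HAS2, PTX3 and FSHR were above the limit on at least 4 arrays in each channel. AMH was above it on 0 arrays, and FOXL2 on at most 3 in either channel. The shares passing in the inner cell mass and sperm lists were near that of the 13689 named genes. So was the share in the cumulus list over the 6 markers that met the same condition. The log2 ratio of BSO over control could be tested at 27 of the 30 markers. None passed the adjusted test (limma). By the unadjusted p, 10 had one under 0.05, each with less signal in BSO, where 14.0% of the 13689 named genes were lower and 13.8% higher. The 10 were 5 of 10 trophectoderm markers (median ratio -0.20), 2 of 4 inner cell mass markers (SOX2 and FGF4, median -0.076, all 4 below 0), 1 of 3 hypoblast markers (GATA4 at -0.85, median 0.030), 1 of 6 cumulus and granulosa markers (FSHR, median 0.13, with 5 of 6 above 0) and 1 of 4 sperm markers (PRM2, median -0.12). Their part in the ratios below was not tested. In pooled embryos, fewer cells with a transcript and less transcript per cell cannot be told apart.

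Ratios below are the deposited log2 values of BSO over control. Arrays of opposite dye orientation were averaged in pairs to 4 replicates, so that a dye effect cancels, and the mean was tested against 0 with limma over the 36995 probes that passed the filter on dim probes, with Benjamini-Hochberg adjustment. Of the 15 probes, 13 passed that filter, and GDF9 and ZAR1 did not and were not tested. None of the 13 had a limma adjusted p under 0.05, and the lowest was 0.0845, where 0.595% of all 36995 probes passed (0.332% lower and 0.262% higher in BSO). By the unadjusted p, 4 of the 13 (TLE6, NOBOX, WEE2 EMBV3_38048 and H1FOO EMBV3_01861) had one under 0.05, all with less signal in BSO. That is 30.8% of them in either direction, against 26.0% of all probes in either direction (13.4% lower and 12.6% higher). The share in either direction was thus near the background. The share lower was 30.8%, against 13.4% of all probes, a gap that rests on 4 probes and was not tested. Of the 13, 5 had the same sign in all 4 replicates, 4 lower and 1 higher, or 38.5%, against 38.4% of all probes (17.0% lower and 21.3% higher). The mean was below 0 in 8 of the 13, against 44.1% of all probes. Their median was -0.069, against 0.019 over all probes.

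**Figure D2:**
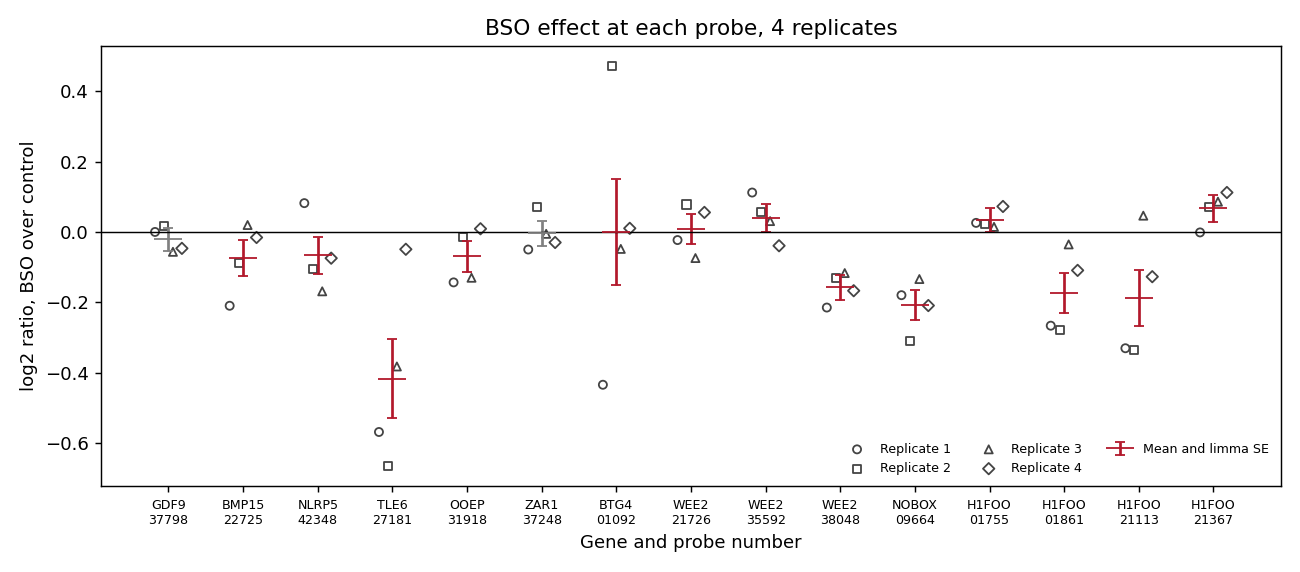
The log2 ratio of BSO over control at each of the 15 probes (horizontal axis), with 1 symbol per replicate and a bar for the mean with its limma SE (grey for GDF9 and ZAR1, which were not tested and whose SE is from the fit with no filter). The 4 TLE6 symbols lie between -0.67 and -0.05, and the BTG4 symbols of replicates 1 and 2 lie on opposite sides of 0.

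GDF9 and BMP15 are related growth factors of the TGF-beta family by which the oocyte acts on the granulosa cells around it. The GDF9 probe lay at 0.80 to 0.93 times the limit in the BSO channel (median 0.872) and at 0.80 to 0.96 times in the control channel (median 0.884). Its replicate ratios were 0.00036, 0.018, -0.056 and -0.046, and with both channels below the limit they give no level of GDF9. The BMP15 probe was above the limit on 8 of 8 arrays in both channels. Its multiples were 1.12 to 1.51 with BSO (median 1.30), against 1.32 to 1.65 in controls (median 1.53), and the groups overlapped. The BMP15 ratios in replicates 1 to 4 were -0.21, -0.087, 0.020 and -0.015, lower in 3 of 4. Their mean of -0.073 ± 0.051 (limma SE, n = 4) had a limma adjusted p of 0.406 and a 95% interval of -0.21 to 0.061.

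NLRP5, TLE6 and OOEP belong to the subcortical maternal complex, which early mouse embryos need to pass their first divisions. The NLRP5 probe was above the limit on 4 arrays with BSO and on 5 in controls, at 0.89 to 1.14 times with BSO (median 0.970), against 0.84 to 1.27 times in controls (median 1.08). Its replicate ratios of 0.082, -0.11, -0.17 and -0.074 averaged -0.066 ± 0.053 (limma SE, n = 4, limma adjusted p 0.459). The OOEP probe was above the limit on 7 arrays in each channel, at 0.98 to 1.21 times with BSO (median 1.13), against 0.995 to 1.40 times in controls (median 1.20). OOEP had ratios of -0.14, -0.014, -0.13 and 0.0094, a mean of -0.069 ± 0.044 (limma SE, n = 4) and a limma adjusted p of 0.369. For neither gene was the mean larger than the spread between replicates.

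TLE6, a co-repressor-like protein of the same complex, was the only member well above background. Its probe lay at 2.17 to 5.24 times the limit with BSO (median 3.13), against 3.60 to 9.97 times in controls (median 5.47). Multiples of bright probes can differ between channels without a lower ratio. The trophectoderm marker TFAP2C, which is much brighter than TLE6, had medians of 153 with BSO and 224 in controls at its brightest probe. The log2 ratio of that probe was 0.15, and those of the other kept TFAP2C probes were -0.091 and 0.015. TLE6 ratios in replicates 1 to 4 were -0.57, -0.67, -0.38 and -0.049. All 4 replicates were lower with BSO, and replicate 4 was close to 0. The mean of -0.42 ± 0.11 (limma SE, n = 4), a 1.33-fold lower level, had a 95% interval of -0.71 to -0.12, an unadjusted p of 0.0152 and a limma adjusted p of 0.116. The mean was -0.62 in replicates 1 and 2, on a pair of slides with 2 arrays each, and -0.22 in replicates 3 and 4, on a slide with 4 arrays. The test of that difference between slides gave a limma adjusted p of 0.663.

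The gap between dye orientations at TLE6 was wider than its mean ratio. With BSO in Cy5 the 4 arrays were at -1.40, -1.73, -1.33 and -0.80 in replicates 1 to 4, and with BSO in Cy3 at 0.26, 0.40, 0.56 and 0.70. Every array with BSO in Cy5 was thus lower in BSO and every array with BSO in Cy3 higher. The gap between the orientations was -1.79 ± 0.095 (limma SE, n = 4), with a limma adjusted p of 6.33e-07, and 0.270% of the 36995 probes had a larger gap in size. Fitted on the 8 arrays with a dye term and with paired arrays sharing a replicate block, TLE6 had the same mean with a limma adjusted p of 0.0480, in a fit where 12.1% of all probes passed. With the replicate block but no dye term, its adjusted p was 0.403 and 11.6% of all probes passed. The estimated correlation within pairs was 0.568 with the dye term and -0.0076 without it, so that the fit without the dye term counted the 8 arrays much as 8 separate samples. The fit with the dye term also drew on 8 arrays of 4 pairs, with the same correlation for all probes. It can overstate the evidence where the arrays of a pair are closer than that. At BTG4 its SE was 0.114, against 0.151 over the 4 replicates.

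Within a dye, BSO and control pools can be set side by side across arrays. On the scale of log2 raw intensity minus the channel's median over all gene probes, TLE6 in Cy5 was at 0.89, 1.24, 1.05 and 1.21 with BSO, against 1.61, 1.90, 1.85 and 1.87 in controls. In Cy3 the TLE6 values were 1.53, 1.87, 1.97 and 2.10 with BSO, against 2.38, 3.03, 2.72 and 2.62 in controls. The groups did not overlap in either dye, and the mean differences were -0.71 in Cy5 and -0.82 in Cy3. Raw values of this kind carry no correction for brightness: the 3136 probes within 0.5 of TLE6 in mean log2 intensity had median differences of -0.38 in Cy5 and -0.32 in Cy3. BSO lay below control with no overlap in both dyes at 12.1% of these and at 5.60% of all 36995 probes, and 3.64% of the 3136 had lower differences than TLE6 in both dyes. These within-dye values were added after the ratios had been seen. In the deposited ratios the same 3136 probes had a median of 0.0091, while TLE6 was at -0.42 there and at -0.47 in ratios made from the scanner files with normexp and loess.

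**Figure D3:**
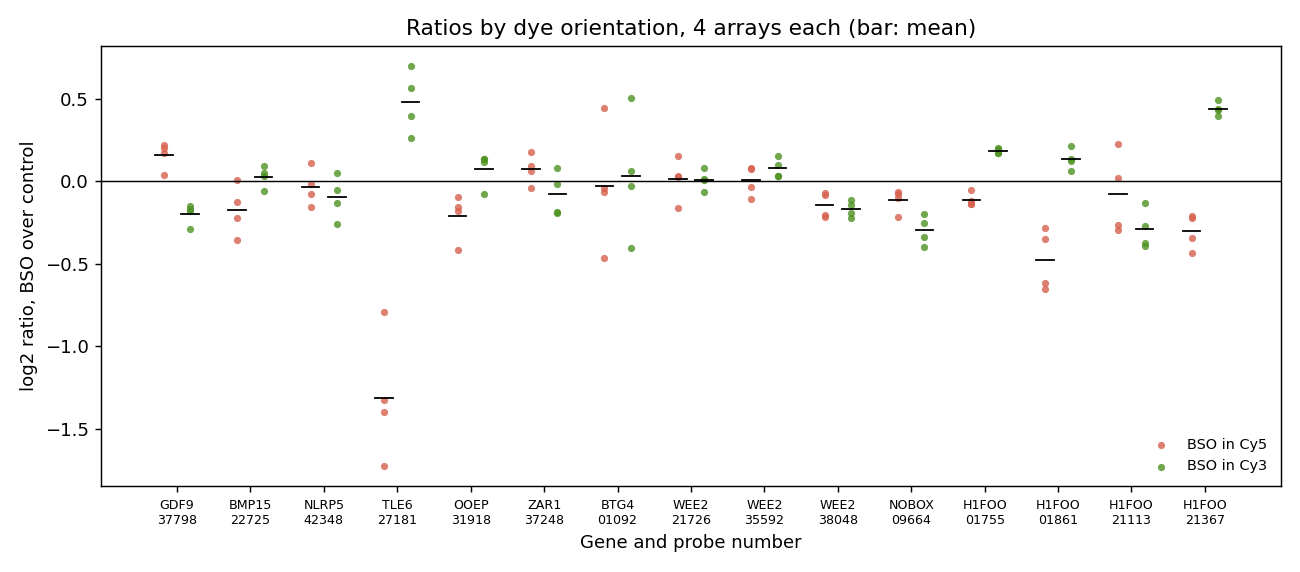
The log2 ratio of BSO over control at each of the 15 probes (horizontal axis), split by dye orientation, with 1 point per array (4 each) and a bar for the mean. TLE6 has means of -1.31 with BSO in Cy5 and 0.48 with BSO in Cy3, while BTG4 has nearly the same values in both orientations.

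A dye gap was common among the 13 tested probes. In 8 of them, or 61.5%, the orientations differed at a limma adjusted p under 0.05, against 52.6% of all probes. After TLE6 the widest gaps were at H1FOO, where probe EMBV3_21367 had means of -0.30 with BSO in Cy5 and 0.44 with BSO in Cy3, and probe EMBV3_01861 had -0.48 and 0.13 in the same order. BMP15, at -0.17 and 0.028, and OOEP, at -0.21 and 0.075, were also of opposite sign in the 2 orientations. NOBOX was below 0 in both, at -0.12 with BSO in Cy5 and -0.30 with BSO in Cy3. The WEE2 probe EMBV3_38048 was at -0.15 with BSO in Cy5 and -0.17 with BSO in Cy3. The gap of that probe was 0.023 ± 0.064, with a limma adjusted p of 0.779.

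ZAR1 and BTG4 act on stored messages. ZAR1 binds maternal messenger RNAs, and BTG4 brings them to the CCR4-NOT deadenylase that starts their decay. The ZAR1 probe was below the limit on every array, at 0.88 to 0.99 times with BSO (median 0.920), against 0.82 to 0.99 times in controls (median 0.924), so its ratios, between -0.050 and 0.071, give no level of ZAR1. The BTG4 probe was above the limit on 8 of 8 arrays in both channels, at 1.09 to 1.37 times with BSO (median 1.26), against 1.05 to 1.77 times in controls (median 1.32).

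BTG4 had the widest spread between replicates of the 13 tested probes. Its ratios in replicates 1 to 4 were -0.43, 0.47, -0.048 and 0.011. Replicate 1 was lower with BSO, replicate 2 was higher by nearly the same amount, and the other two were near 0. The mean was 0.00028 ± 0.151 (limma SE, n = 4), with a limma adjusted p of 0.999 and a 95% interval of -0.39 to 0.39. The SD of the replicates was 0.371, against a median of 0.120 over all probes, and 9.46% of the probes had a larger one. Both arrays of a replicate had almost the same BTG4 ratio. With BSO in Cy5, replicates 1 and 2 were at -0.46 and 0.44, and with BSO in Cy3 they were at -0.40 and 0.50. The largest gap between the arrays of a replicate was 0.101.

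Channel by channel, the BTG4 values differed between replicates mostly in the control pools. As log2 raw intensity minus the channel's median, BSO pools in Cy5 were at 0.089, 0.22, -0.039 and -0.057, against 0.59, -0.12, 0.16 and -0.11 in control pools. In Cy3, BSO pools were at 0.13, 0.20, 0.045 and 0.0081, against 0.48, -0.079, 0.052 and -0.029 in control pools. The control pool of replicate 1 was the highest of the 8 pools in both dyes. The SD over 4 pools was 0.130 with BSO and 0.333 in controls in Cy5, and 0.0857 with BSO and 0.257 in controls in Cy3. No test of the spread was made.

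**Figure D4:**
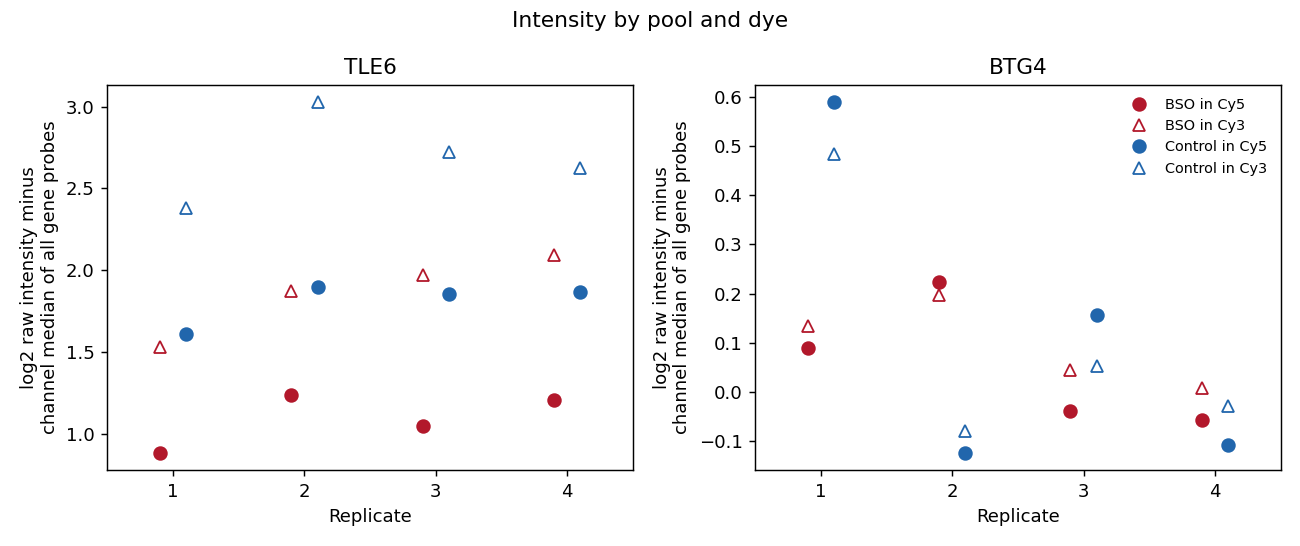
Log2 raw intensity minus the channel's median over all gene probes, by replicate (horizontal axis), for TLE6 and BTG4, with BSO in red and control in blue, filled circles for Cy5 and open triangles for Cy3. TLE6 lies lower with BSO than in controls within each dye, and BTG4 is highest in the control pool of replicate 1 in both dyes.

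WEE2 is the oocyte kinase that inhibits CDK1 and so keeps the oocyte in meiotic arrest. Its 3 probes lay around the limit. Probe EMBV3_38048 was above it on 5 arrays with BSO and on 8 in controls, at 0.94 to 1.15 times with BSO (median 1.04), against 1.02 to 1.32 times in controls (median 1.14). The ratios of this probe were -0.21, -0.13, -0.12 and -0.17, lower in 4 of 4 replicates and close to each other. Their mean was -0.16 ± 0.04 (limma SE, n = 4), or 1.12-fold lower, with an unadjusted p of 0.00827 and a limma adjusted p of 0.0954.

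The other WEE2 probes did not share that difference. Probe EMBV3_21726, above the limit on 5 arrays with BSO and on 4 in controls, had ratios of -0.023, 0.078, -0.074 and 0.056 and a mean of 0.0094 ± 0.0423 (limma SE, n = 4, limma adjusted p 0.902). Probe EMBV3_35592, above the limit on 7 arrays with BSO and on 5 in controls, had ratios of 0.11, 0.057, 0.031 and -0.039 and a mean of 0.040 ± 0.040 (limma SE, n = 4, limma adjusted p 0.549). The probes of WEE2 thus disagreed in sign. With the replicate block, EMBV3_38048 had a limma adjusted p of 0.0606 with a dye term. It was 0.0294 without that term, where the block had almost no effect and the 8 arrays of 4 pairs counted as 8 samples.

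NOBOX, a homeobox factor that drives oocyte genes including GDF9 in the mouse, was above the limit on 4 arrays with BSO and on 7 in controls. Its multiples were 0.88 to 1.14 with BSO (median 0.995), against 0.95 to 1.41 in controls (median 1.16). NOBOX ratios were -0.18, -0.31, -0.13 and -0.21, lower in 4 of 4 replicates. The mean of -0.21 ± 0.04 (limma SE, n = 4), or 1.15-fold lower, had the lowest p of the 13 tested probes, at 0.00555 unadjusted and 0.0845 adjusted (limma), with a 95% interval of -0.32 to -0.095. With the replicate block its limma adjusted p was 0.0209 with a dye term, and 0.0283 without it, where the block again had almost no effect. Both fits drew on 8 arrays of 4 pairs. NOBOX was lower on all 8 arrays, but the signal it rests on is at the level of the negative controls, where 4 of 8 BSO channels did not pass the limit.

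H1FOO encodes the oocyte linker histone that is exchanged for the somatic forms as the embryo develops, and its 4 probes fell into 2 kinds. Probes EMBV3_01861 and EMBV3_21113 were above the limit on 8 of 8 arrays in both channels. EMBV3_01861 lay at 1.02 to 1.41 times with BSO (median 1.20), against 1.17 to 1.65 times in controls (median 1.35). Its ratios of -0.27, -0.28, -0.035 and -0.11 were lower in 4 of 4 replicates, with a mean of -0.17 ± 0.06 (limma SE, n = 4), an unadjusted p of 0.0315 and a limma adjusted p of 0.157.

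EMBV3_21113 of H1FOO lay at 1.01 to 1.47 times with BSO (median 1.10), against 1.22 to 1.52 times in controls (median 1.34). Its ratios of -0.33, -0.34, 0.047 and -0.13 averaged -0.19 ± 0.08 (limma SE, n = 4, limma adjusted p 0.222). Both probes were lowest in replicates 1 and 2, the pair of slides with 2 arrays each. For EMBV3_21113 the mean on those slides minus that on the slide with 4 arrays was -0.29 ± 0.09, with an unadjusted p of 0.0370 and a limma adjusted p of 0.650. It was the only one of the 13 with an unadjusted p under 0.05 in that test, where 7.63% of all probes had one and 0 passed the adjusted threshold.

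The other two H1FOO probes had ratios on the opposite side of 0. EMBV3_01755 was above the limit on 4 arrays with BSO and on 3 in controls, with ratios of 0.026, 0.024, 0.015 and 0.073 and a mean of 0.034 ± 0.033 (limma SE, n = 4, limma adjusted p 0.538). EMBV3_21367 was above it on 6 arrays with BSO and on 4 in controls, with ratios of -0.00096, 0.071, 0.086 and 0.11 and a mean of 0.067 ± 0.037 (limma SE, n = 4, limma adjusted p 0.311). The probes of H1FOO thus had means of both signs, and all 4 lay under 2 times the limit.

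Other genes of oocyte and maternal function were read from lists chosen from general knowledge, with earlier results of these data known. The lists held 42 genes in all, of which 35 had a probe and 33 passed the filter on dim probes. At 2 times the limit there were 5 of the 33 (DPPA3, DDX4, AURKC, KIT and TRIM28). Of the 13689 named genes that passed the filter on dim probes, 48.0% reached that level at their brightest probe. The median ratio of the 33 was -0.00039, against 0.017 over those 13689 genes. None of the 33 had a limma adjusted p under 0.05, where 0.628% of the 13689 did. By the unadjusted p, 9 of the 33 had one under 0.05, 4 of them lower and 5 higher in BSO, and 24 did not. Of the 13689, 14.0% were lower and 13.8% higher.

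By role, the medians of the lists ran from -0.15 to 0.11. The 3 zona pellucida genes were at a median of -0.0056, with ZP4, an egg coat protein, at -0.13. The 4 kept oocyte transcription regulators were all above 0, with a median of 0.11, and FIGLA, which works with NOBOX in oocyte growth, was at 0.16 ± 0.04 (limma SE, n = 4, limma adjusted p 0.104). The 6 kept partners of NLRP5, TLE6 and OOEP in the subcortical complex or the NLRP family had a median of 0.047, with PADI6 at 0.17 and ZBED3 at 0.18. The 9 kept genes of message storage and translation had a median of -0.045, with the translational regulators CPEB1 at -0.17 and PATL2 at -0.21, the other PATL2 probe being at 0.028. The 5 kept meiosis and egg membrane genes had a median of 0.032, with FBXO43, an inhibitor of the anaphase-promoting complex, at 0.093. The 2 kept genes of no other list, KIT and UCHL1, had the median of -0.15, at -0.0019 and -0.29, with neither at an unadjusted p under 0.05. The other kept KIT probes were at -0.036 and 0.33, and the other kept UCHL1 probe was at -0.31. The 4 kept chromatin genes had a median of -0.074, with ZFP57, which guards imprints, at -0.17. Unlike most of the list, DPPA3, a maternal chromatin protein, was bright, at a median of 31.2 times the limit with BSO and 31.0 times in controls. Its ratio was 0.49 ± 0.09 (limma SE, n = 4, limma adjusted p 0.0751), higher in 4 of 4 replicates, while its other probe was at 0.061.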

How the data were processed

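The authors' deposited series table held 1 log2 ratio per probe and array. The submitters' processing notes name limma. How background was handled and ratios were normalized is not given in the sources used here. Comparison with the scanner intensities showed that each array's ratio runs BSO over control, and array medians were 0.0011 to 0.013. The deposited scanner files held raw spot intensity and local background intensity for Cy3 and Cy5, with no correction, per the file headers. RNA was amplified and chemically labelled, per the labels' protocols.

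Arrays of opposite orientation at the same order within slides were averaged to 4 replicates. The labels do not say which arrays share pools, but deviations from the orientation means correlated at 0.726 to 0.853 within these pairs. The numbers were therefore taken to pair the samples. Between other arrays the correlation was at most -0.027, but the deviations within an orientation sum to 0, which itself pushes these values below 0. The labels do not tie the pools to separate cultures or animals, and p-values therefore reflect only pool-to-pool spread, possibly technical. A probe was kept if it exceeded the limit (95th percentile, 153 negative-control spots) in either channel on 4 or more of 8 arrays. Tests used limma 3.58.1 in R 4.3.3 (lmFit, eBayes), with Benjamini-Hochberg adjustment over kept probes and a threshold of 0.05, and the same function was tested on simulated data. Slide sets were compared by a contrast. Figures were drawn with matplotlib 3.10.9.

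Symbols came from the platform annotation, where 21790 of 43794 probes had a symbol and 0 had several. All 10 members were found in a RefSeq table on ARS-UCD2.0, used for names only. No genome build or probe sequence was used here. The rule for naming took every probe of the members and, from the other oocyte and maternal lists, up to 5 genes per direction with an unadjusted p under 0.05 and 1 sign in all 4 replicates, at the brightest kept probe. Members and lists were chosen with earlier results of these data known. The alternatives tried are given in the closing section, and the number of arrays limits the precision.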

Additional observations from a re-analysis of the deposited data

Results flagged for a closer look

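The ratios of the 15 probes were examined for a sample far from the other 3 in 45 groups of 4, namely the 4 replicates and the 4 arrays of each dye orientation at each probe. OOEP with BSO in Cy3 was the only group with one: replicate 3 was at -0.080, while the other replicates were at 0.11 to 0.13. Chance flags about 1 in 20 such groups. Averaged with its array of BSO in Cy5, replicate 3 of OOEP was at -0.13, within the range of the other replicates.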

How the results depend on the processing

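Of the 36995 probes, 220 passed the adjusted threshold with limma, and this count was the result that depended most on the processing. From the scanner files it was 0 with normexp and loess, 0 with normexp and median centring and 468 with loess and no background correction. With the stricter filter on dim probes, which leaves 13498 probes, the count was 366, or 2.71% of them, against 0.595% of the 36995. Array weights gave 1128, and slide set as a term gave 0. The count was also 0 within the pair of slides that hold replicates 1 and 2 or within slide 25, which holds the other 4 arrays. It was 0 without any 1 of the 4 replicates. On 8 arrays it was 4309 with a replicate block, 4463 with a replicate block and a dye term and 4234 with neither, and 8739 on the arrays with BSO in Cy5 alone and 4108 on those with BSO in Cy3 alone. At an unadjusted p there were 9606 probes (26.0%), against 3869 with the stricter filter (28.7% of its 13498 probes). There were 15089 with BSO in Cy5 alone (40.8%) and 5257 within that pair of slides (14.2%).

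The 13 member probes had 0 calls at the adjusted threshold and 4 at an unadjusted p. At the adjusted threshold there were 2 with a replicate block (NOBOX and WEE2, where 11.6% of all probes passed), 2 with a replicate block and a dye term (NOBOX and TLE6, 12.1%), 2 on 8 arrays as separate samples (11.4%), 3 with BSO in Cy5 alone (23.6%) and 4 with BSO in Cy3 alone (11.1%). Without the dye term the block correlation was -0.0076, so that fit was nearly the one on separate samples. At an unadjusted p there was 1 with the stricter filter, which leaves TLE6 alone (28.7% of all probes under that filter). There were 7 with BSO in Cy3 alone (33.9% of all probes) and 0 within slide 25 (18.3%). Without 1 replicate there were 2 to 5 (17.8% to 24.5%), the 2 being without replicate 1. The 33 other maternal genes had 0 calls at the adjusted threshold and 9 at an unadjusted p. Their adjusted count was 2 in each of the 3 fits on 8 arrays, where 11.4% to 12.1% of all probes passed. Other settings gave 9 with BSO in Cy5 alone (23.6%), 7 with BSO in Cy3 alone (11.1%) and 1 with array weights (3.05%). Their unadjusted count was 1 with the stricter filter, which 5 of the 33 passed (28.7% of all probes under that filter). Within the pair of slides that count was 3 (14.2% of all probes), and within slide 25 it was 5 (18.3%). Probes above background on all 8 arrays in both channels numbered 5, against 1 at 2 times the limit and 1 with the highest negative control as the limit, TLE6 in each case.

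Directions turned with the dye at several probes. With BSO in Cy3 alone the ratio was 0.48 at TLE6, 0.028 at BMP15, 0.075 at OOEP, 0.13 at H1FOO EMBV3_01861 and 0.081 at PATL2. With BSO in Cy5 alone it was -0.11 at H1FOO EMBV3_01755, -0.30 at H1FOO EMBV3_21367, 0.46 at ZP4 and -0.24 at ZBED3. BTG4, at 0.00028, was at -0.014 with scanner files, normexp and loess, -0.025 with no background correction, -0.032 with BSO in Cy5 alone, -0.019 within slide 25, -0.0040 with array weights, -0.042 with within-dye intensities (chosen after seeing the data) and -0.16 to 0.15 without 1 replicate. WEE2 EMBV3_21726 was at -0.00058 with median centring, -0.0090 within slide 25, -0.011 with array weights and -0.014 to 0.037 without 1 replicate. Within slide 25, WEE2 EMBV3_35592 was at -0.0038 and BMP15 at 0.0024. The causes were not tested beyond what each setting's own construction shows.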
